A study of Homo sapiens with 4 samples.

Results

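The KIF genes, which encode kinesin motors, were taken from the RNA-sequencing of SAS cells after knockdown of STAU1, an RNA-binding protein that recognises double-stranded RNA. They were chosen by name, as the protein-coding genes whose symbol is KIF followed by a number and an optional letter, and 39 of the 67008 listed genes met this rule. Of these, 13 were classed as mitotic (spindle, chromosome and midzone motors), 13 as cargo transport motors and 13 as other. The classes come from textbook roles, not from the counts, but were set with earlier results of these data known. Low counts removed 8 of the 39, so 31 KIF genes could be tested, with 11 mitotic, 12 transport and 8 other members.

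SAS is a human tongue squamous carcinoma line. The comparison was between 2 groups of 2 libraries, Ctrl cells with a hairpin against luciferase (shLuc) and shSTAU1 cells with a hairpin against STAU1, each delivered by viral infection into cells labelled wild type. Each group rests on 1 hairpin by name in 1 cell line, and no rescue library was analysed here, so an effect of STAU1 and an effect of that hairpin cannot be told apart. No label says that the 2 libraries of a group came from separate cultures, so p-values measure only the spread between these libraries, which may be technical.

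Total depth was 32206655 to 36301574 counts, and in neither group did the pair of libraries agree within sampling noise. STAU1 itself had 8362 and 8218 counts in Ctrl cells against 1449 and 1467 after the knockdown. It fell by 2.59 on the log2 scale (SE 0.13, adjusted p = 0.00103, edgeR's quasi-likelihood test with Benjamini-Hochberg adjustment over the 14303 genes tested). The labels name a mouse fibroblast line as well as an oral cancer line, while the growth protocol gives SAS cells and the organism is human. All 9 squamous epithelial markers were tested, and their summed level was 7521 and 7102 CPM in the Ctrl libraries and 11337 and 8689 CPM in the shSTAU1 libraries, where CPM are counts relative to the TMM-scaled library size. Among them KRT5 and SFN rose (log2 fold changes 0.65 and 1.43) and PKP1 fell (-0.92). The 8 fibroblast and mesenchymal markers summed to 17.9 and 22.8 CPM in the Ctrl libraries and to 11.1 and 10.2 CPM in the shSTAU1 libraries. COL3A1, DCN, LUM and THY1 had at most 3 counts in any library, PDGFRA had 2 to 20 and PDGFRB 7 to 23. COL1A1 fell (log2 fold change -1.35). COL1A2 went the other way, with 40 and 55 counts in Ctrl cells and 75 and 128 in shSTAU1 cells. Its log2 fold change was 1.01, and it did not pass the test (adjusted p = 0.185 in edgeR). The 7 immune and endothelial markers summed to 7.73 to 18.1 CPM. PTPRC, CD68 and PECAM1 had at most 3 counts in any library, and CD3E had 10 counts in the second shSTAU1 library only. VWF had 457 and 270 counts in Ctrl cells and 432 and 110 in shSTAU1 cells. CDH5 had 149 and 230 counts, then 159 and 152. The part of these shifts in the results on KIF genes was not tested.

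Kinesins walk along microtubules and are powered by ATP. Mitotic kinesins build the spindle, align chromosomes and drive cytokinesis, and their genes are transcribed mostly in G2 and M phase, under the control of the DREAM and MuvB complexes, which bind promoters through a cell cycle homology region (CHR). Transport kinesins carry vesicles, mitochondria, RNA granules and ciliary cargo, most of them towards the plus end, and kinesin-1, made of KIF5 heavy chains and KLC light chains, is the best known of them.

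One KIF gene changed past the threshold of 0.05 on the adjusted p, and it was a transport motor. KIF5B, the ubiquitous kinesin-1 heavy chain, fell to 54.0% of its Ctrl level. None of the 11 mitotic KIF genes passed the test, and their median log2 fold change was -0.0026, against 0.069 for the 12 transport genes and 0.0059 for all genes tested. The mitotic median was 0.074 without KIF4B and 0.074 with KIF2A counted as mitotic. The order of the mitotic and transport medians thus turned on 1 gene. In these bulk libraries, fewer cells that express a gene and less of its RNA per cell cannot be told apart. The share of all tested genes called was 2.6%, with 1.13% called higher and 1.48% called lower, so 1 of 31 KIF genes was close to the background. At an unadjusted p under 0.05, 4 KIF genes were found where 24.5% of all tested genes met that level. These were KIF5B, KIF14, KIF16B and KIF21B, all lower in shSTAU1 cells. The 2 groups did not overlap in CPM for 18 of the 31 KIF genes (11 higher and 7 lower in shSTAU1 cells), and 56.6% of all tested genes were apart in this way. Over all 31 the fold change was positive in 16 and negative in 15, with a median of 0.0071.

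**Figure D1:**
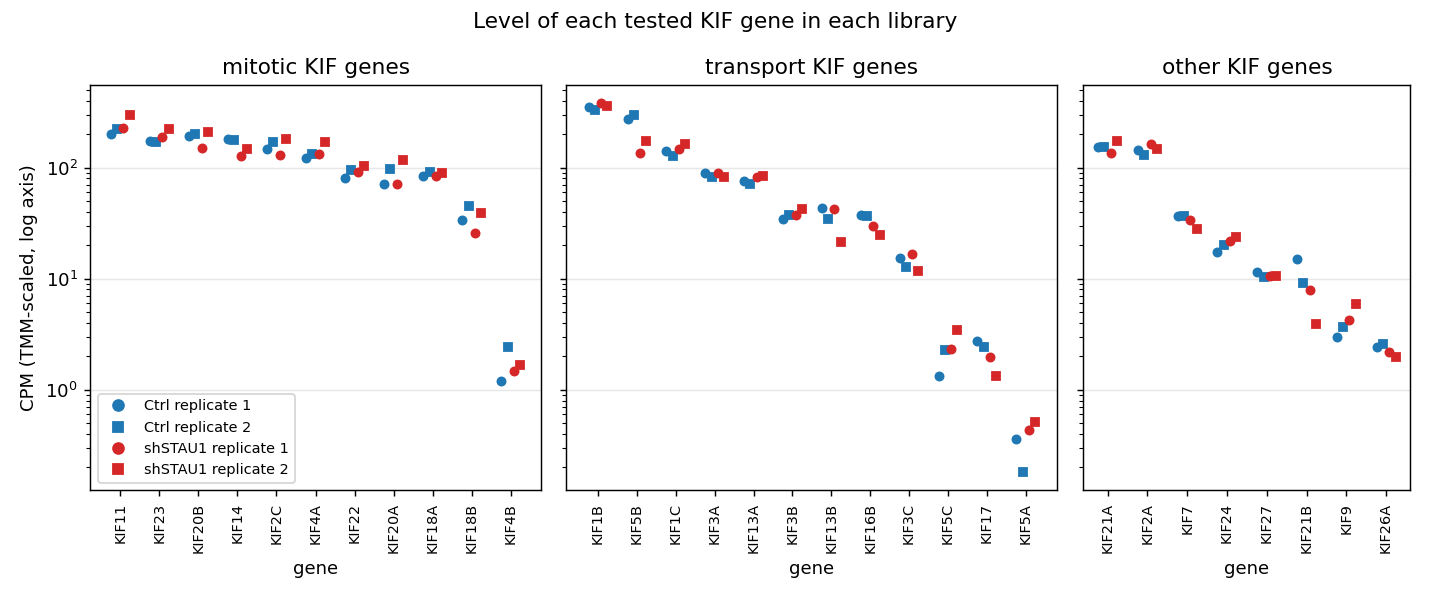
CPM of each of the 31 tested KIF genes (log axis) in the 4 libraries, by role, with genes ordered by their mean level. Points are single libraries, with circles for replicate 1 and squares for replicate 2. KIF5B stands at 272 and 299 CPM in the Ctrl libraries and at 136 and 173 CPM in the shSTAU1 libraries, and the mitotic genes other than KIF4B lie between 25.9 and 297 CPM.

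KIF5B (ENSG00000170759.11) spans chr10:32009010-32056431 on GRCh38, on the minus strand. It had 9152 and 9795 counts in Ctrl cells against 4730 and 6096 in shSTAU1 cells, or 286 ± 19.1 CPM (SD, n = 2) and 154 ± 25.9 CPM (n = 2). Both shSTAU1 libraries lay far below both Ctrl libraries. KIF5B fell by 0.89 on the log2 scale (SE 0.15, adjusted p = 0.0360 in edgeR). It fell by 1.002 between the libraries with replicate number 1 and by 0.79 between those with number 2, a comparison added after the data were seen. DESeq2 gave an adjusted p of 5.1e-05 and limma-voom one of 0.0358. Without the first Ctrl library the adjusted p in edgeR was 0.490 and no gene of the whole table was called, without the second it was 0.165, and with no filter on low counts it was 0.0991, while the log2 fold change lay between -1.08 and -0.72 whichever library was left out.

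Levels were compared between genes per kilobase of coding sequence, a scale that adjusts for coding length only. Differences between genes in exon capture were not tested. On this scale KIF5B had the highest level of any tested KIF gene in Ctrl cells. It stood at 94.2 and 104 CPM per coding kilobase, apart from KIF2C, the next in the order, at 67.3 and 78.8. In shSTAU1 cells it was at 47.0 and 59.7 CPM per coding kilobase and came 6th of the 31. KIF11, KIF23, KIF2C, KIF2A and KIF1B had higher means there, and the lowest library of KIF2C, at 59.1, was below the higher KIF5B library. In Ctrl cells KIF2C, KIF11, KIF1B, KIF2A and KIF23 came next, each overlapping its direct neighbour in this order, while KIF2C was apart from KIF1B, KIF2A and KIF23.

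KIF5A and KIF5C, the heavy chains known mainly from neurons, were hardly present. KIF5C had 45 and 75 counts in Ctrl cells and 81 and 121 in shSTAU1 cells (log2 fold change 0.66, SE 0.41, adjusted p = 0.348 in edgeR). KIF5A had 12 and 6 counts, then 15 and 18 (log2 fold change 0.79, SE 0.65, adjusted p = 0.488). For both genes the shSTAU1 libraries were above the Ctrl libraries, though neither passed the test. KIF5B made up 99.3% ± 0.15 (SD, n = 2) of the summed KIF5 level per coding kilobase in Ctrl cells and 97.9% ± 0.17 (n = 2) in shSTAU1 cells. The sum itself was 94.8 and 104 CPM per coding kilobase in Ctrl cells and 48.0 and 61.1 in shSTAU1 cells.

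The light chains, which link the KIF5 dimer to cargo, had fold changes of both signs, and none passed the test. KLC2, the most abundant, had 92.9 and 85.5 CPM in Ctrl cells and 64.5 and 72.2 CPM in shSTAU1 cells (log2 fold change -0.38, SE 0.14, adjusted p = 0.140 in edgeR). KLC1 had 8.95 and 9.01 CPM, then 6.41 and 5.60 CPM (log2 fold change -0.58, adjusted p = 0.162). KLC4 had 12.7 and 12.4 CPM, then 21.0 and 15.4 CPM (log2 fold change 0.53, adjusted p = 0.175). The groups were apart for these 3 genes, lower in shSTAU1 cells for KLC1 and KLC2 and higher for KLC4, and overlapped for KLC3 (log2 fold change 0.61, adjusted p = 0.291). Over all tested genes 56.6% were apart. Summed over the 4 light chains, the level per coding kilobase was 64.4 and 59.4 CPM in Ctrl cells and 54.2 and 53.0 CPM in shSTAU1 cells.

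**Figure D2:**
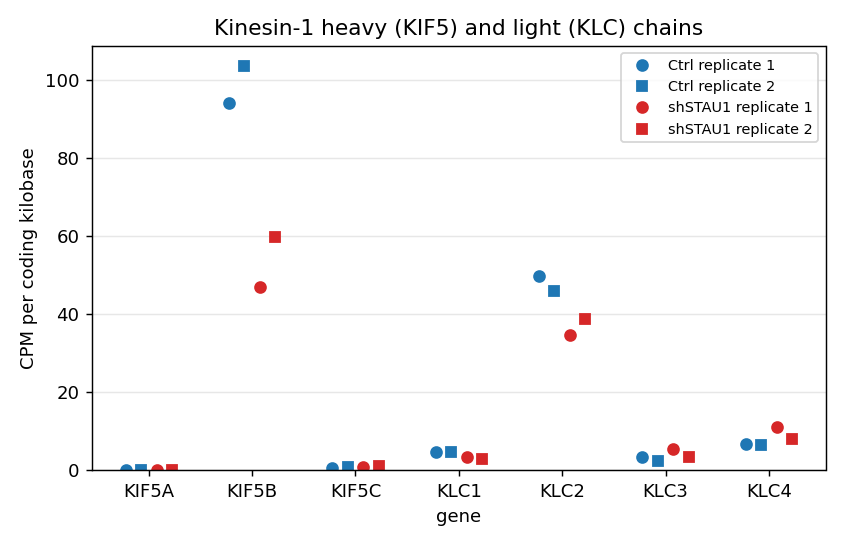
Level of the kinesin-1 heavy chains (KIF5A, KIF5B, KIF5C) and light chains (KLC1 to KLC4) as CPM per coding kilobase, on a linear axis from 0, with 1 point per library. KIF5B is the highest heavy chain and KLC2 the highest light chain in every library, and KIF5B falls from 94.2 and 104 in the Ctrl libraries to 47.0 and 59.7 in the shSTAU1 libraries.

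Of the 17 light chains, adaptors and regulators of kinesins, none passed the test in edgeR, and 9 had an unadjusted p under 0.05 (4 higher and 5 lower), where 24.5% of all tested genes did. DESeq2 called 2 and limma-voom none, where DESeq2 called 12% of the genes to which it gave an adjusted p and limma-voom 2.54% of all tested genes. The median log2 fold change of the list was -0.01. TRAK2, which ties kinesin-1 to mitochondria, had 33.6 and 34.2 CPM in Ctrl cells and 20.2 and 25.1 CPM in shSTAU1 cells (log2 fold change -0.58, adjusted p = 0.0939 in edgeR). TRAK1, its paralog, overlapped between the groups (log2 fold change -0.11). Among the JIP scaffolds, MAPK8IP3 had a log2 fold change of -0.44 (adjusted p = 0.120) and MAPK8IP2 one of 1.04 (adjusted p = 0.0689), each with the groups apart. MAPK8IP1 had one of 0.39 (adjusted p = 0.429 in edgeR), also with the groups apart. SPAG9, a more abundant JIP scaffold, had 189 and 178 CPM in Ctrl cells and 190 and 174 CPM in shSTAU1 cells. Its groups overlapped (log2 fold change -0.01, adjusted p = 0.957). MAP7, a microtubule protein that recruits kinesin-1, had 69.9 and 63.4 CPM, then 53.2 and 46.9 CPM (log2 fold change -0.41, adjusted p = 0.135), while its relatives MAP7D1 and MAP7D3 were higher in both shSTAU1 libraries (log2 fold changes 0.32 and 0.37). Dynein, the motor that runs the opposite way, was called in 1 of its 20 tested subunits and partners, against 2.6% of all tested genes. This was the heavy chain DYNC1H1, which fell by 0.79 on the log2 scale (SE 0.11, adjusted p = 0.0328), but it did not pass after correction of the counts for length and GC content (adjusted p = 0.0502), with no filter (0.0712) or without either Ctrl library (0.490 and 0.101).

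None of the other 11 tested transport kinesins passed the test in edgeR, DESeq2 or limma-voom. Among them 1 had an unadjusted p under 0.05, where 24.5% of all tested genes did. DESeq2 gave KIF5A no adjusted p. KIF1B, a kinesin-3 carrier of synaptic vesicle precursors and mitochondria, had 351 and 326 CPM in Ctrl cells and 378 and 355 CPM in shSTAU1 cells (log2 fold change 0.11, SE 0.12, adjusted p = 0.594 in edgeR). KIF1C, which moves dense core vesicles and integrins, had 140.5 and 128 CPM, then 146 and 162 CPM (log2 fold change 0.20, SE 0.13, adjusted p = 0.390). KIF3A, the kinesin-2 subunit needed for cilia, had 89.8 and 82.5 CPM, then 88.8 and 81.5 CPM (log2 fold change -0.02, SE 0.13, adjusted p = 0.950). In KIF1B and KIF1C both shSTAU1 libraries were above both Ctrl libraries by little, and in KIF3A the groups overlapped.

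KIF3A pairs with KIF3B or KIF3C, and neither partner passed the test. KIF3B had a log2 fold change of 0.14 and KIF3C one of 0.02, both with overlapping groups. KIFAP3, the subunit that joins the KIF3 dimer to cargo, had one of -0.05. KIF13A, a kinesin-3 motor of endosomes, had 75.0 and 71.6 CPM in Ctrl cells and 82.3 and 83.8 CPM in shSTAU1 cells (log2 fold change 0.18, adjusted p = 0.410 in edgeR). KIF13B had 43.2 and 34.6 CPM, then 42.8 and 21.4 CPM, so a single shSTAU1 library was low (log2 fold change -0.28, adjusted p = 0.606).

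KIF16B, a kinesin-3 motor that places early endosomes through its lipid-binding PX domain, was lower in both shSTAU1 libraries. It had 37.5 and 36.6 CPM in Ctrl cells and 30.1 and 24.6 CPM in shSTAU1 cells (log2 fold change -0.44, SE 0.16, adjusted p = 0.155 in edgeR, unadjusted p = 0.0294). KIF17, a dendritic and ciliary motor, was lower too but near the low end, at 2.74 and 2.41 CPM, then 1.95 and 1.33 CPM (log2 fold change -0.65, adjusted p = 0.318).

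**Figure D3:**
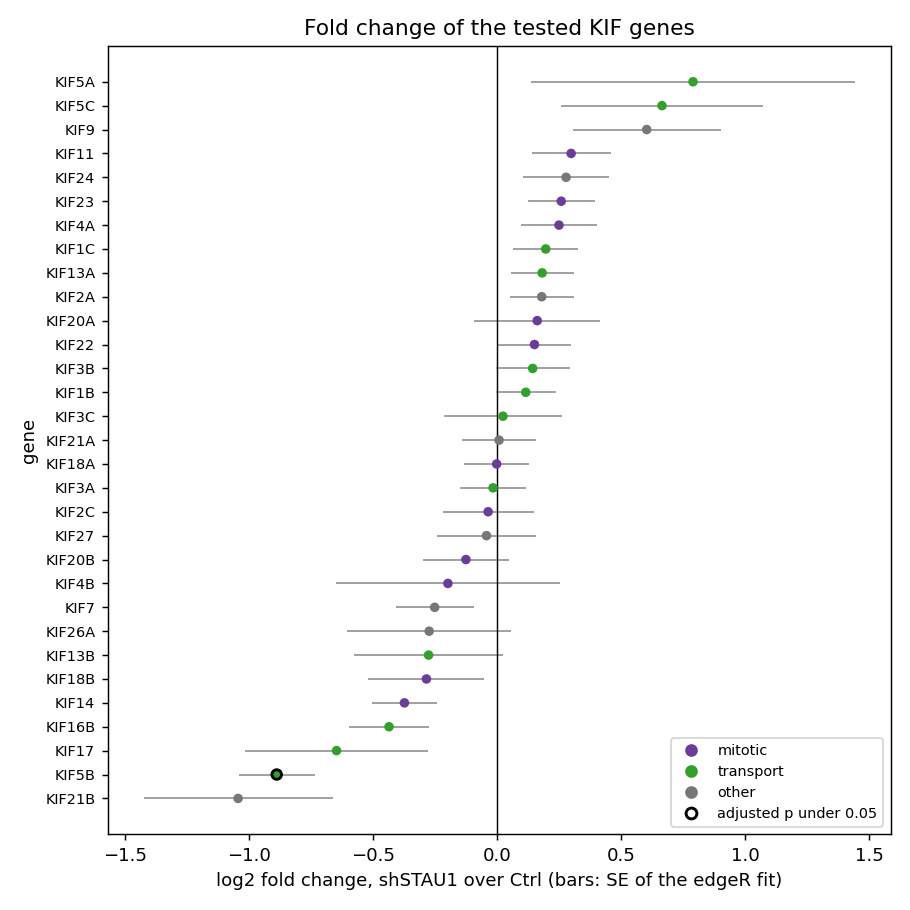
Log2 fold change (shSTAU1 over Ctrl) of the 31 tested KIF genes with the SE of the edgeR fit as bars, coloured by role. The only gene past the adjusted threshold, KIF5B at -0.89, is ringed, KIF21B at -1.05 and KIF5A at 0.79 are the ends of the range, and the mitotic genes lie between -0.37 and 0.30.

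Mitotic genes took 9 of the first 15 places in the order of levels per coding kilobase in Ctrl cells. None passed the test in edgeR, DESeq2 or limma-voom, and 1 had an unadjusted p under 0.05, where 24.5% of all tested genes did. The log2 fold changes lay between -0.37 and 0.30. KIF11, the kinesin-5 that pushes spindle poles apart, had 201 and 224 CPM in Ctrl cells and 226 and 297 CPM in shSTAU1 cells (log2 fold change 0.30, SE 0.16, adjusted p = 0.291 in edgeR). KIF23, the motor of centralspindlin in cytokinesis, had 172 and 171 CPM, then 187 and 223 CPM (log2 fold change 0.26, SE 0.14, adjusted p = 0.281). KIF4A, a chromokinesin of the midzone, had 123 and 131 CPM, then 132 and 169.8 CPM (log2 fold change 0.25, SE 0.15, adjusted p = 0.356). These 3 were higher in both shSTAU1 libraries, and the second shSTAU1 library was the highest for each.

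KIF14, a kinesin-3 that works with citron kinase in cytokinesis, was the one mitotic member lower in both shSTAU1 libraries. It had 180.3 and 176 CPM in Ctrl cells and 127 and 148 CPM in shSTAU1 cells (log2 fold change -0.37, SE 0.13, adjusted p = 0.138 in edgeR, unadjusted p = 0.0230). CIT, which encodes citron kinase, had 202 and 217 CPM, then 139 and 140.2 CPM (log2 fold change -0.59, SE 0.12, adjusted p = 0.0522). CIT passed in DESeq2 (adjusted p = 0.00486) and in edgeR with library size in place of TMM (0.0418). It did not pass in limma-voom (0.0519), nor in edgeR with no filter (0.123) or after the length and GC correction (0.0683). With a library left out its log2 fold change ran from -0.64 to -0.53. KIF14 and CIT were each lower in both shSTAU1 libraries, and PRC1, another partner of KIF14, had only 2 to 14 counts. Whether so few counts reflect a low level of PRC1 RNA was not tested.

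The other 7 tested mitotic genes overlapped between the groups. Thus 4 of 11 mitotic genes were apart, against 56.6% of all tested genes. KIF20B, a kinesin-6 of abscission, had 191 and 201 CPM in Ctrl cells and 149 and 209.7 CPM in shSTAU1 cells (log2 fold change -0.13, SE 0.17, adjusted p = 0.690 in edgeR). KIF2C, the kinesin-13 that takes microtubules apart at centromeres, had 146 and 171 CPM, then 129 and 181 CPM (log2 fold change -0.04, SE 0.18, adjusted p = 0.921). KIF20A, another kinesin-6 of cytokinesis, had 70.9 and 97.6 CPM, then 70.7 and 118 CPM (log2 fold change 0.16, SE 0.25, adjusted p = 0.730). In all 3 the spread within the shSTAU1 group was wider than the difference between the group means.

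KIF18A, a kinesin-8 that dampens chromosome movements, was nearly level at 86.9 ± 4.92 CPM (SD, n = 2) in Ctrl cells and 86.7 ± 3.60 CPM (n = 2) in shSTAU1 cells. Its paralog KIF18B had 39.7 ± 8.14 and 32.6 ± 9.35 CPM, and KIF22, the chromokinesin Kid, had 87.5 ± 10.97 and 97.1 ± 8.89 CPM. KIF4B, an intronless copy of KIF4A, had 1.80 ± 0.87 and 1.57 ± 0.14 CPM. Of its 4329 windows of 50 bases 606 also occur in KIF4A, so reads of KIF4A could be counted on it, and its values are uncertain.

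Mitotic and transport classes were set side by side in each library by their mean log2 CPM. The mitotic mean exceeded the transport mean by 1.497 and 1.83 in the Ctrl libraries and by 1.47 and 1.92 in the shSTAU1 libraries, so the groups overlapped and the libraries within a group differed by more than the groups. The knockdown effect on the mitotic minus the transport mean was 0.03 with all 4 libraries and ran from -0.20 to 0.26 when 1 library was left out. With 2 libraries against 2, an exact permutation test cannot give a two-sided p below 0.333, and none was computed for a score over the members.

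**Figure D4:**
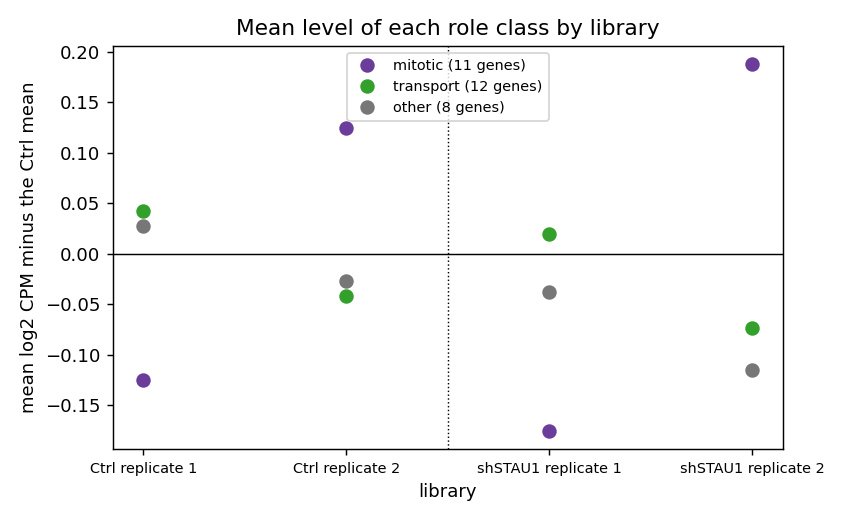
Mean log2 CPM of the 11 mitotic, 12 transport and 8 other tested KIF genes in each library, minus the mean of the 2 Ctrl libraries. The mitotic mean is low in replicate 1 and high in replicate 2 of both groups, at -0.12 and 0.12 in Ctrl and -0.18 and 0.19 in shSTAU1, while the transport mean stays between -0.073 and 0.042.

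Mitotic genes also differed between libraries of the same group. All 11 mitotic genes were higher in the second than in the first shSTAU1 library, with a median log2 difference of 0.37, and 9 of the 11 were higher in the second than in the first Ctrl library, with a median of 0.16. For transport genes these counts were 6 and 3 of 12, with medians of -0.03 and -0.11. The genes of G2 and M phase, such as CCNB1 and CDC20, moved in the same way, with 18 of 18 higher in the second shSTAU1 library (median 0.35) and 14 of 18 in the second Ctrl library (median 0.14). G1 and S phase genes were higher in the second library for 15 of 16 in each group. The median of all tested genes was -0.01 in shSTAU1 and 0.00 in Ctrl, and the part of this difference between libraries in the results on mitotic KIF genes was not tested. Of the 18 G2 and M genes 1 was called, against 2.6% of all tested genes. This was MAD2L1, a spindle checkpoint protein, which rose by 0.85 on the log2 scale (SE 0.15, adjusted p = 0.0366 in edgeR). It did not pass with no filter (adjusted p = 0.102 in edgeR). Nor did it pass without either Ctrl library, where the log2 fold change was 0.89 without the first and 0.81 without the second. Leaving out libraries moved the median of the mitotic class between -0.26 and 0.26 and that of the transport class between -0.073 and 0.12.

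Promoters of the classes were read for the letters of the CHR and of the CCAAT box, which many G2 and M genes carry. RefSeq promoters (GRCh38.p14, 250 bases before to 50 after the start) were found for 33 of the 39 KIF genes. The letters of the CHR, TTTGAA or TTCGAA on either strand, stood in 11 of 14 mitotic promoters (78.6%), which belong to 10 of the 13 genes, in 1 of 16 transport promoters (6.2%, KIF5B), in 1 of 12 other promoters (KIF24) and in 16.4% of all 35116 promoters. CCAAT, on either strand, stood in 71.4% of mitotic, 31.2% of transport, 33.3% of other and 34.6% of all promoters. In the 10 mitotic genes the match nearest to the start began between 55 bases before it and 24 bases after it, whereas that of KIF5B began 140 bases before it. That of KIF24, of the other class, began 1 base after the start, within the mitotic range. These are letters in a window and not binding sites.

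The windows below show these letters in capitals, on the strand of the gene, for 4 mitotic genes in which they lie close before the start, and for KIF5B as the one transport match. They lie at chr10:92593090-92593119 for KIF11, chr15:69414282-69414311 for KIF23, chrX:70290058-70290087 for KIF4A and chr16:29790712-29790741 for KIF22, all on the plus strand, and at chr10:32056548-32056577 on the minus strand for KIF5B. The KIF11 window holds the letters in the reverse orientation.
KIF11: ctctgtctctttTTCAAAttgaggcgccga
KIF23: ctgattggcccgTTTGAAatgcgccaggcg
KIF4A: ctccgggacggaTTTGAAacttggcggtta
KIF22: ggcaccggggaaTTCGAAtgggagaggcgg
KIF5B: agtgcagtaaaaTTTGAAtctgcgaccccg

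The 3' untranslated regions were searched for AAGAGAAA, the 8 bases that hold the words AAGAGAA and AGAGAAA. These words had been picked in earlier work on the same fold changes, so what follows is a description and no independent evidence. The longest 3' untranslated region in GENCODE 29 held the 8 bases in 4 of the 31 tested KIF genes (12.9%), against 12.6% of all tested genes with such a region. KIF5B held 2 copies, as did 2.21% of all tested genes with at least 2, and KIF14, KIF16B and KIF2C held 1 each. KIF5B, KIF14 and KIF16B were also 3 of the 4 KIF genes with an unadjusted p under 0.05. The log2 fold changes of the 4 carriers ran from -0.89 to -0.04 with a median of -0.41, and those of the other 27 from -1.05 to 0.79 with a median of 0.11. Over all tested genes the medians were -0.11 for the 1502 carriers and 0.06 for the other 10406. The longest region was chosen after the KIF fold changes had been seen, and in the transcript with the longest coding sequence 3 tested KIF genes (KIF5B, KIF14 and KIF2C) held the 8 bases.

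The sites of the 4 carriers are printed because they hold the shared letters, in capitals, with their neighbours on the RNA strand written as DNA. On GRCh38 they lie at chr10:32011070-32011099 and chr10:32009283-32009312 for KIF5B, chr1:200553286-200553315 for KIF14 and chr20:16272289-16272318 for KIF16B, all on the minus strand, and at chr1:44767719-44767748 on the plus strand for KIF2C.
KIF5B, first: ttttttttcttAAGAGAAAatggaacattt
KIF5B, second: agatggttcagAAGAGAAActcaatgaaat
KIF14: caggagagtttAAGAGAAAtcagcacagat
KIF16B: ttgttttactaAAGAGAAAaatgtgagtgg
KIF2C: atgtaacaataAAGAGAAAaaataaatcag

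Of the 8 tested KIF genes with other roles, none was called in edgeR, where 2.6% of all tested genes were. Only KIF21B had an unadjusted p under 0.05, where 24.5% of all tested genes did. DESeq2 called the same gene, as it did 12% of the genes to which it gave an adjusted p. KIF21B, a kinesin-4 that limits microtubule growth, had 510 and 301 counts in Ctrl cells and 276 and 137 counts in shSTAU1 cells (log2 fold change -1.05, SE 0.38, adjusted p = 0.148 in edgeR, 0.0400 in DESeq2). The groups were apart, but the lower Ctrl library was close to the higher shSTAU1 library, and each group spread widely. Its paralog KIF21A had 153 and 153 CPM, then 135 and 172 CPM (log2 fold change 0.0071, SE 0.15, adjusted p = 0.982).

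KIF2A, a kinesin-13 of spindle poles and of neurite pruning that could also be counted as mitotic, had 144 and 130 CPM in Ctrl cells and 162 and 148 CPM in shSTAU1 cells (log2 fold change 0.18, SE 0.13, adjusted p = 0.426 in edgeR). KIF7, a regulator of Hedgehog signalling at the ciliary tip, had 36.5 and 36.6 CPM, then 33.4 and 27.99 CPM (log2 fold change -0.25, SE 0.16, adjusted p = 0.358). KIF24, which restrains cilium formation, had 17.3 and 20.1 CPM, then 21.7 and 23.6 CPM (log2 fold change 0.28, SE 0.17, adjusted p = 0.358). KIF9, a motor of motile cilia, had 3.004 and 3.63 CPM, then 4.22 and 5.86 CPM (log2 fold change 0.60, SE 0.30, adjusted p = 0.257). The groups of these 4 genes did not overlap, higher in shSTAU1 cells for KIF2A, KIF24 and KIF9 and lower for KIF7. In this class 6 of 8 genes were apart, against 56.6% of all tested genes. KIF27, the paralog of KIF7, and KIF26A had log2 fold changes of -0.04 and -0.27. The strand setting of the counting is not given in the sources used here, and 17.9% of the exon bases of KIF9, 13.1% of KIF27, 13.01% of KIF22, 11.8% of KIF7 and 7.78% of KIF13B lie opposite exons of another gene, so reads of such a pair could not be told apart if strand was ignored. In KIF2A 8.97% of exon bases are shared with a gene on the same strand.

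The 8 KIF genes that were not tested had few or no counts. KIF15, a kinesin-12 that backs up KIF11, and KIF2B were listed at 0 in all 4 libraries, where 3 counts would be 0.0849 to 0.0916 CPM. A value of 0 could not be read as a lack of the RNA here, because TUBB, a tubulin gene that dividing cells use, and TMEM42, whose gene overlaps KIF15, were also listed at 0, as was the mitotic kinesin KIFC1. The exons of KIF15 share 0% of their bases with exons of other genes on either strand. TUBB and TMEM42 were looked up after values had been seen, and why they are at 0 was not tested. KIF6, KIF12, KIF19, KIF25 and KIF26B had 0 to 4 counts in each library, and KIF1A, the neuronal kinesin-3, had 16 and 9 counts in Ctrl cells and 9 and 8 in shSTAU1 cells.

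Of the 5 kinesins whose symbols fall outside the naming rule, 4 were tested and 1 was called, against 2.6% of all tested genes. STARD9, a kinesin-3 of the spindle that holds pericentriolar material together, had 16.9 and 16.7 CPM in Ctrl cells and 6.41 and 7.64 CPM in shSTAU1 cells. It fell by 1.26 on the log2 scale (SE 0.20, adjusted p = 0.0357 in edgeR), but did not pass without either Ctrl library (0.490 and 0.123) or with no filter (0.0989). CENPE, the kinetochore kinesin, overlapped between the groups (log2 fold change -0.08). Of the 14 partners of mitotic kinesins none passed in edgeR and 1 had an unadjusted p under 0.05, against 2.6% and 24.5% of all tested genes. DESeq2 called 1, against 12% of the genes to which it gave an adjusted p. Limma-voom called none, against 2.54% of all tested genes. AURKB and INCENP, of the chromosomal passenger complex that KIF20A carries to the midzone, had log2 fold changes of 0.35 and 0.25, and RACGAP1, the partner of KIF23, had one of -0.27 (adjusted p = 0.276 in edgeR).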

How the data were processed

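RNA of SAS cells was sequenced with the TruSeq RNA Exome kit, which captures coding exons. The authors deposited whole-number counts per gene, without normalization. Their notes name Partek and hg38, while the aligner, counting program and strand setting are not given in the sources used here. The authors' own test for this experiment is not given either. No sample column was left unmapped, and 60604 of the 67008 identifiers matched a symbol (name tables, then GENCODE 29).

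The main test used edgeR 4.0.16 under R 4.3.3 (filterByExpr, TMM, quasi-likelihood test, Benjamini-Hochberg adjustment over all 14303 genes tested, threshold 0.05). The biological coefficient of variation was 19.1%. CPM per coding kilobase used the longest coding sequence of GENCODE 29. Sequences were read with Python 3.11.15. Floors of 3 counts cover counting error only. The fits were also run on counts simulated with no effect of replicate number, so that run cannot show how they behave under one. Alternatives were DESeq2 1.42.0, limma-voom (limma 3.58.1), library size only, no filter, a replicate block, a length and GC correction, looser criteria and leaving out each library.

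KIF genes, roles, lists and 3' untranslated words were chosen with earlier results of these data known. Full values were given for KIF genes past the threshold and, in each class, for the 4 with the highest mean CPM and the 2 with the largest fold change. From other lists, called members and direct partners were named. Any further gene was chosen with its values in view. Protein sequences were not analysed here, and 1 marker gene is not reported by name here.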

Additional observations from a re-analysis of the deposited data

How the results depend on the processing

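Each group has 2 libraries, and leaving out 1 of them moved the count of calls in either direction. The number of genes past the threshold (372) was 1449 in DESeq2, 11 with no filter, 1585 at an adjusted p under 0.10, 2098 by a 1.5-fold change and an unadjusted p below 0.05, and from 0 to 2780 with a library left out. STAU1 ranged from -2.60 to -2.58 on the log2 scale with a library left out, and its adjusted p was 0.490 without the first Ctrl library, where no gene was called. KIF genes past the threshold numbered 2 in DESeq2 and under the fold change criterion (KIF5B and KIF21B), 0 with no filter and 0 to 7 with a library left out. They were 0 without either Ctrl library, 7 without the first shSTAU1 library (KIF11, KIF13B, KIF16B, KIF20A, KIF21B, KIF4A and KIF5B) and 3 without the second (KIF14, KIF18B and KIF5B). Mitotic calls ranged from 0 to 3 and transport calls from 0 to 3, with 0 transport calls with no filter. The class medians ranged from -0.26 to 0.26 (mitotic) and -0.073 to 0.12 (transport), and the mitotic minus transport difference was -0.02 after the length and GC correction. The causes were not tested.

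The groups share replicate numbers, but no source says that a number marks a batch, and same-numbered libraries correlated by 0.27 across genes in their deviations. A replicate block called 4087 of the 14303 genes tested, against 372 without it, and 6 of the 31 KIF genes. These were 2 mitotic genes (KIF11 and KIF14), 3 transport genes (KIF5B, KIF13B and KIF16B) and KIF21B. With the length and GC correction the block called 3627 of 14159 genes and 5 of 31 KIF genes, of which 2 were mitotic and 2 transport. Calls thus rose over all tested genes, and they rose in each list too. The counts follow with the block plus correction in brackets, out of the members tested in the main fit. They were 2 (2) of 4 kinesins outside the naming rule, 9 (7) of 17 light chains and adaptors and 2 (1) of 14 mitotic partners. Dynein had 4 (5) of 20, G2 and M genes 3 (3) of 18 and G1 and S genes 6 (5) of 16. Squamous markers had 6 (5) of 9, fibroblast markers 2 (2) of 4 and immune markers 1 (1) of 2.

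Calls per list otherwise moved as follows. Light chains and adaptors had 2 calls in DESeq2 and at an adjusted p under 0.10, and 1 by the fold change criterion. Mitotic partners had 1 in DESeq2, with library size only and under both looser criteria. Dynein and G1 and S genes each had 2 in DESeq2 and under both looser criteria, and dynein had 0 after the length and GC correction. Fibroblast markers had 2 by the fold change criterion. With no filter every list had 0. With a library left out, calls ranged from 0 to 1 (kinesins outside the rule, immune markers), 0 to 5 (light chains and adaptors, G2 and M genes), 0 to 4 (mitotic partners), 0 to 3 (dynein), 0 to 7 (G1 and S genes), 0 to 6 (squamous markers) and 0 to 2 (fibroblast markers).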
